A study of Saccharomyces cerevisiae with 8 samples.

Results

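The genes described here are 41 yeast genes of the cell wall: mannoproteins, PIR proteins, and the enzymes that make, remodel or cut glucan and chitin. They were listed by name rather than by a cut on their values, though with earlier results of these data known. All 41 were found by symbol among the 5449 genes measured on the arrays, each by 1 probe set. The study followed mRNA in Saccharomyces cerevisiae BY4741 over hours of exposure to TFM. BY4741 is a haploid laboratory strain of mating type a that lacks working HIS3, LEU2, MET17 and URA3 genes, and every group carried these changes. Cultures grown to saturation in rich glucose medium (YPD) at 30 °C were given 0.05 mM TFM in 2% isopropanol for 1, 2 or 4 h. Controls were taken just before treatment, with 2% isopropanol alone, and are called time zero. The labels give the compound only as TFM; a lampricide of that name is known to uncouple mitochondria. There were 2 control RNA samples, 2 at 1 h, 2 at 2 h and 1 at 4 h, so 7 RNA samples on 8 arrays. The 2 arrays at 4 h are technical replicates of 1 RNA sample and were averaged (n = 1). No solvent sample was taken at the later times, so hours in solvent and exposure to TFM cannot be told apart. A change in total mRNA per cell cannot be seen on these arrays, and fewer cells of a kind and less RNA per cell cannot be told apart.

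Yeast builds its wall from a mesh of glucan with some chitin, to which mannoproteins are attached. GPI-anchored mannoproteins are moved from the membrane to the glucan, while PIR proteins (proteins with internal repeats) bind glucan directly. Glucan synthase at the plasma membrane makes the chains, transglycosidases of the Gas, Crh and Scw/Bgl families lengthen, branch and join them, and chitin synthases make the bud ring, the septum and the lateral chitin. After division, the daughter cell expresses chitinase and glucanases, and these enzymes open the septum. Wall genes are known to follow the cell cycle, the entry into stationary phase and the cell wall integrity pathway, a Rho1, Pkc1 and Slt2 kinase cascade.

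Values are RMA values on the log2 scale, so a difference of 1 is 2-fold. A member is said to have passed, risen or fallen where limma's adjusted p was under 0.05 over all 5449 genes. Errors on changes are limma's standard errors (SE), drawn from a spread shared by all groups, and the single 4 h sample was assumed to vary like the rest. The strain's absent genes read low on all 8 arrays, from 3.51 to 4.10 for URA3, 4.36 to 4.76 for MET17 and 5.64 to 6.17 for LEU2. All 6 genes specific to mating type a had a mean above the 25th percentile of the probe sets, 10.02, and 3 of the 4 alpha-specific genes lay below it. The exception, SAG1 for the alpha-agglutinin, read 11.52 to 11.71 on every array. Of the 41 wall genes, UTR2 and NCA3 had a mean below 10.02 and are called dim. Over 17 ribosomal RNA probe sets the median signal was 9.76 and 9.97 before treatment, 10.5 and 11.8 after 1 h, 11.4 and 13.0 after 2 h, and 12.2 and 12.1 after 4 h. The 3' minus 5' difference of 7 control genes, a sign of RNA quality, was 1.37 in control replicate 1 and between 1.11 and 1.21 on the other arrays. The part of these measures in the results was not tested.

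The members that passed against control were mostly lower. After 1 h, 2 members had fallen (CWP1 and PIR3) and 1 had risen (SCW10), which is 7.32% of the 41, against 4.99% of all genes called (3.47% higher and 1.52% lower). After 2 h CWP1 alone passed, 2.44% of members, against 0.11% of all genes (0.0918% lower and 0.0184% higher). After 4 h, 8 members had fallen: CWP1, CWP2, KNH1, GAS1, GAS3, GAS5, SCW10 and TOS1. These are 19.5% of the members, against 4.46% of all genes called in either direction and 3.73% called lower. No member rose at 4 h in limma's test, against 0.734% of all genes, while at an unadjusted p under 0.05 there were 2 higher and 11 lower. Over all genes the share with an unadjusted p under 0.05 was 27.5% at 1 h, 12.3% at 2 h and 19.8% at 4 h. Of the 41 members there were 10 at 1 h (1 higher and 9 lower), 6 at 2 h (1 higher and 5 lower) and 13 at 4 h. The F test over the 3 times called 6 members, CWP1, PIR3, KNH1, GAS1, GAS3 and SCW10, which is 14.6% of the members against 6.51% of all genes. The median member stood at -0.10 at 1 h, 0.00 at 2 h and 0.01 at 4 h, while over all genes it stood at -0.03 at 1 h and -0.02 at 2 h and rounded to 0 at 4 h.

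**Figure D1:**
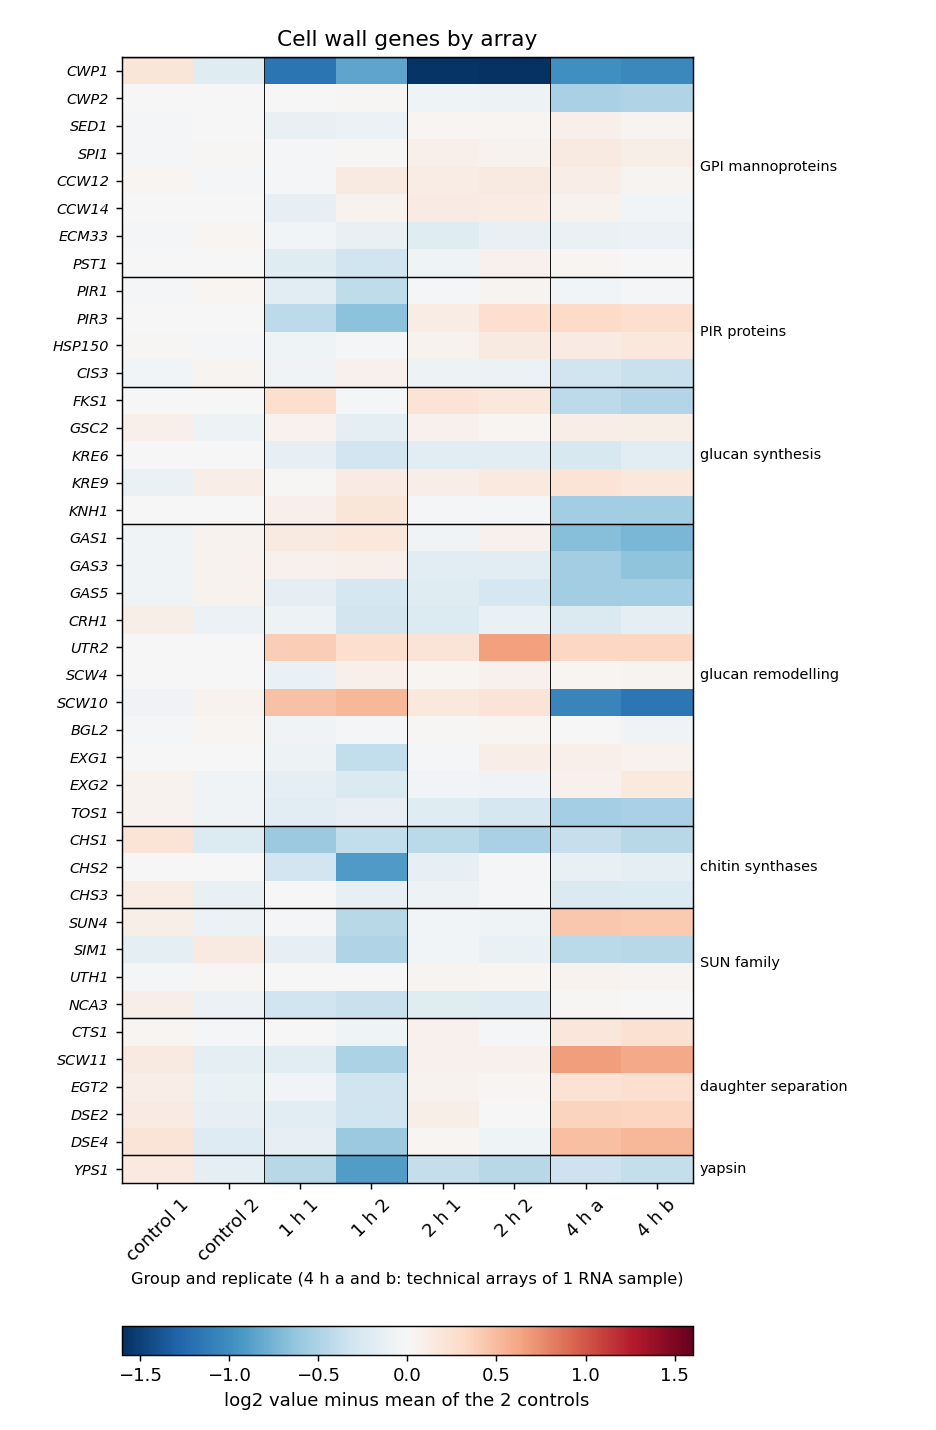
Each row is a wall gene, each column an array, and colour is the log2 value minus the mean of the 2 controls. Rows are grouped by role, and the 4 h columns are technical arrays of 1 RNA sample. CWP1 is low on all 6 arrays of treated cells, SCW10 is high at 1 h and low at 4 h, and the daughter separation genes are highest at 4 h.

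These counts depended on which samples were in the fit. Leaving out 1 replicate takes its group out of the estimate of the spread, and changes that do not involve that group keep their values. The counts below are given without those of all genes in the same fits, so they show only how far the calls depend on the samples. At 4 h the count was 8 of 41 with all samples, but 1 without control replicate 1, 1 without control replicate 2 and 1 without either 2 h replicate; SCW10 was the member that passed in each. At 1 h it was 3, and none of these 3 passed without control replicate 1, without 1 h replicate 2 or without either 2 h replicate (adjusted p from 0.0619 to 0.187), whereas 9 passed without 1 h replicate 1: these 3 and PIR1, KRE6, EXG1, CHS2, SUN4 and YPS1, all 6 of them lower (adjusted p from 0.0222 to 0.0467).

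**Figure D2:**
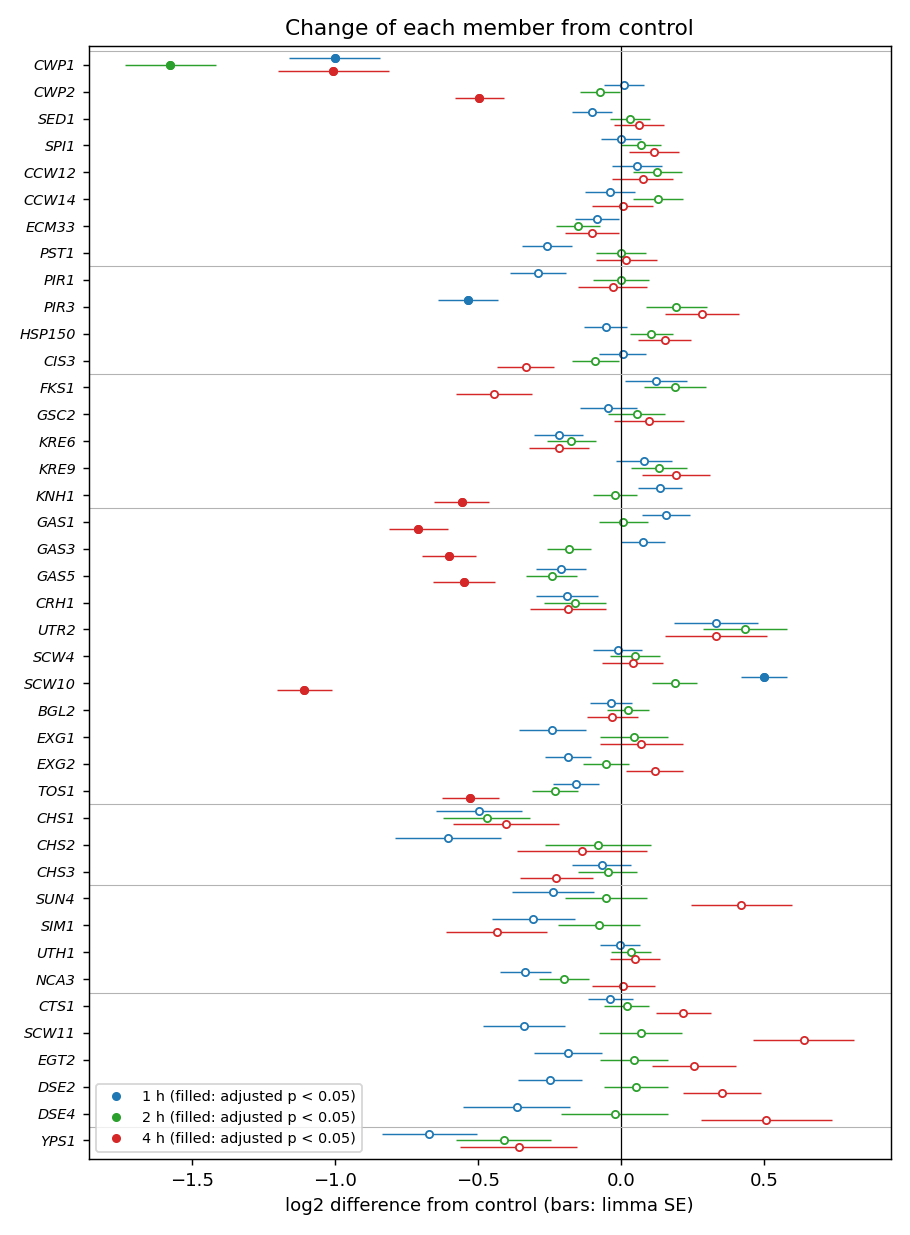
Log2 difference from control for each wall gene at 1, 2 and 4 h, with bars for limma's SE; filled points have an adjusted p under 0.05. The filled points at 4 h all lie to the left of 0, from -1.11 for SCW10 to -0.50 for CWP2, and the 5 daughter separation genes above YPS1 lie to the right of 0 at 4 h, with open points.

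Among the 8 GPI-anchored mannoproteins, CWP1 was lower at every time and CWP2 at 4 h, while the other 6 stayed within 0.26 of control. CWP1, a mannoprotein of the wall's outer layer, read 14.10 and 13.71 before treatment, 12.74 and 13.06 after 1 h, 12.33 and 12.32 after 2 h, and 12.92 and 12.87 after 4 h. All treated arrays were below both controls, and the lowest level was at 2 h. It fell by 1.00 (SE 0.16, adjusted p = 0.0309) at 1 h, by 1.58 (SE 0.16, adjusted p = 0.0486) at 2 h and by 1.01 (SE 0.19, adjusted p = 0.0452) at 4 h, a 2.98-fold lower level at 2 h. The mean of the controls was 13.90 ± 0.28 (SD, n = 2). Without control replicate 1 the changes of CWP1 were -0.81, -1.38 and -0.81, and 0 of the 3 passed (adjusted p from 0.0769 to 0.11). Without either 2 h replicate none of the 3 passed (adjusted p from 0.0759 to 0.472), and at 1 h the change was -1.16 without 1 h replicate 2 (adjusted p = 0.0619). At 4 h it missed the threshold without control replicate 2 (adjusted p = 0.0506). The calls at 2 and 4 h were also lost after median centring (adjusted p = 0.0824 and 0.066) and quantile normalisation (adjusted p = 0.0986 and 0.0738).

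CWP2, an abundant mannoprotein encoded next to CWP1 in the same orientation (RefSeq assembly R64), held its level longer. It read 14.59 and 14.56 before treatment, 14.58 and 14.59 after 1 h, 14.51 and 14.50 after 2 h, and 14.06 and 14.10 after 4 h. The 4 h arrays were thus below all 6 other samples. It fell by 0.50 (SE 0.09, adjusted p = 0.0367) at 4 h, or 1.41-fold, and its change at 1 h was 0.01 (adjusted p = 0.942). That call was lost without either control replicate or either 2 h replicate (adjusted p from 0.0941 to 0.137).

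The other GPI proteins moved little. SED1, a main mannoprotein of stationary cells, stood at -0.10, 0.03 and 0.06 at 1, 2 and 4 h, and SPI1, which weak acids and stationary phase induce, at -0.00, 0.07 and 0.12. CCW12, needed for stable wall at growth sites, stood at 0.06, 0.13 and 0.08. CCW14, of the inner wall layer, stood at -0.04, 0.13 and 0.01, and ECM33, which helps to order the mannoprotein layer, at -0.08, -0.15 and -0.10. PST1, related to ECM33 and known as a target of wall integrity signalling, stood at -0.26 at 1 h (adjusted p = 0.128) and at 0.00 and 0.02 later. CWP2, SED1, SPI1 and CCW12 were among 9 members with a mean above 14, near the top of the arrays, whose highest value was 15.01. Apart from CWP2, these members changed by at most 0.22 at any time; whether the upper end of the scale holds down their differences was not tested.

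Of the 4 PIR proteins, PIR3 had a dip at 1 h. PIR3 read 12.13 and 12.12 before treatment, 11.71 and 11.46 after 1 h, 12.24 and 12.39 after 2 h, and 12.43 and 12.38 after 4 h. Both 1 h samples were below all others, and the later samples were above both controls. It fell by 0.53 (SE 0.11, adjusted p = 0.0455) at 1 h, and from 1 h to 2 h it rose by 0.73 (SE 0.11, adjusted p = 0.0337). At 4 h it was 0.82 (SE 0.13, adjusted p = 0.0186) above 1 h, but 0.28 above control (adjusted p = 0.285). The fall at 1 h was lost without control replicate 1 (adjusted p = 0.187), control replicate 2 (adjusted p = 0.0914), 1 h replicate 2 (adjusted p = 0.0938) or either 2 h replicate (adjusted p = 0.104), and after median centring or quantile normalisation. The rise from 1 h to 2 h was lost without 1 h replicate 2 (adjusted p = 0.0642) or a 2 h replicate (adjusted p = 0.244 and 0.176), and the rise from 1 h to 4 h without either 2 h replicate (adjusted p = 0.0554).

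PIR1, which lies next to PIR3 in divergent orientation, had the same order of samples at 1 h but did not pass. It read 13.28 and 13.34 before treatment and 13.13 and 12.91 after 1 h, a change of -0.29 (SE 0.10, adjusted p = 0.126), and then returned to 13.27 and 13.35 at 2 h. HSP150, a secreted PIR protein first found through heat shock, stood at -0.05, 0.11 and 0.15. CIS3 was at 0.01, -0.09 and -0.33 (adjusted p = 0.137 at 4 h), with 4 h arrays of 13.55 and 13.52 below all other samples. HSP150 and CIS3 are also neighbours, in convergent orientation.

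**Figure D3:**
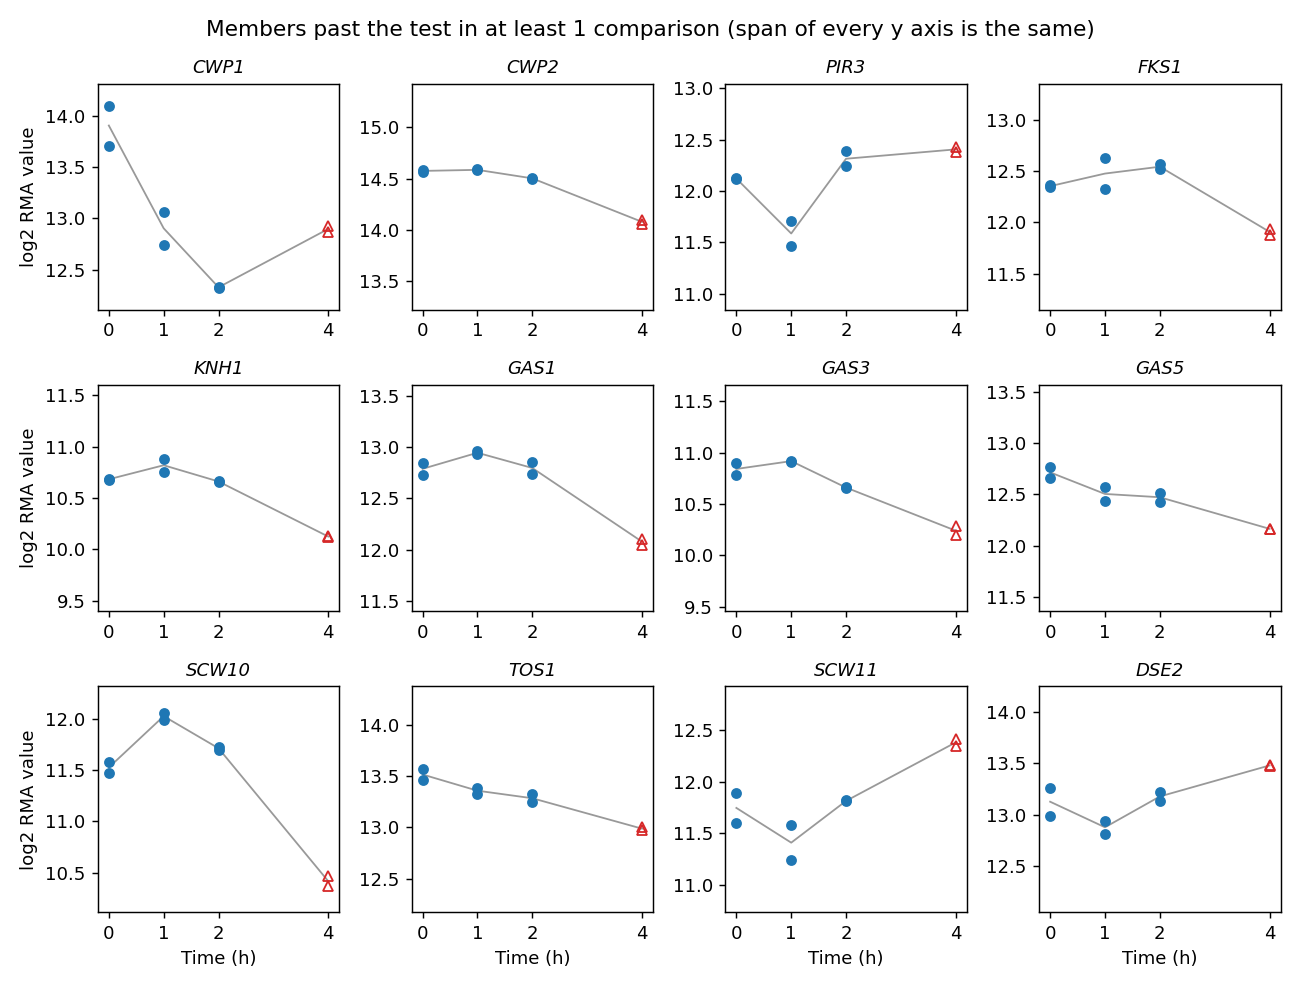
Log2 values against time for the 12 members that passed in at least 1 comparison; circles are RNA samples, triangles the technical arrays at 4 h, and lines join group means, with the same span on every y axis. SCW10 rises at 1 h and is lowest at 4 h, CWP1 is lowest at 2 h, PIR3 dips at 1 h, and GAS1, GAS3, KNH1 and FKS1 have their lowest values at 4 h.

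In glucan synthesis, KNH1 fell at 4 h and FKS1 was lower at 4 h than at 1 h. KNH1, a homologue of KRE9 that acts in making the glucan to which mannoproteins are joined, read 10.68 and 10.69 before treatment, 10.76 and 10.88 after 1 h, 10.67 and 10.65 after 2 h, and 10.12 and 10.13 after 4 h. The first 6 samples lay close together and the 4 h arrays below them. It fell by 0.56 (SE 0.10, adjusted p = 0.0363) at 4 h against control and by 0.69 (SE 0.10, adjusted p = 0.0139) against 1 h. The first call was lost without either control replicate (adjusted p = 0.104 and 0.0981), without either 2 h replicate (adjusted p = 0.13) and after median centring or quantile normalisation, and the second without either 2 h replicate (adjusted p = 0.0554).

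FKS1, the main catalytic subunit of glucan synthase in growing cells, read 12.36 and 12.34 before treatment, 12.62 and 12.33 after 1 h, 12.57 and 12.52 after 2 h, and 11.94 and 11.88 after 4 h. At 4 h it was 0.57 (SE 0.13) below 1 h (adjusted p = 0.0454), while its difference from control, -0.44 (SE 0.13), did not pass (adjusted p = 0.135). The difference from 1 h did not pass without either control replicate or either 2 h replicate, though its value was the same. That from control passed without either 1 h replicate, at the same value, as 1 sample at 1 h adds nothing to the spread. GSC2, the alternative subunit used in starvation and sporulation, stayed at 13.83 to 14.07 on all arrays, with changes of -0.04, 0.06 and 0.10. KRE6, a Golgi and ER protein needed for the linking glucan, stood at -0.22, -0.17 and -0.22, and KRE9 at 0.08, 0.13 and 0.19; neither passed.

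In glucan remodelling 5 of 11 genes fell at 4 h, where 3.73% of all genes were called lower; SCW10 alone of the 5 also passed without either control replicate and without either 2 h replicate. SCW10, a wall glucanase-like protein, had the largest change of the members at 4 h. It read 11.47 and 11.58 before treatment, 11.99 and 12.06 after 1 h, 11.69 and 11.73 after 2 h, and 10.46 and 10.37 after 4 h. Both 1 h samples were above all others and both 4 h arrays below all others. It rose by 0.50 (SE 0.08, adjusted p = 0.0309) at 1 h and fell by 1.11 (SE 0.10, adjusted p = 0.00666) at 4 h, a 2.15-fold lower level. Between 1 h and 4 h it fell by 1.61 (SE 0.10, adjusted p = 0.00321), or 3.05-fold, and between 2 h and 4 h by 1.29 (SE 0.10, adjusted p = 0.00801).

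The fall of SCW10 from 1 h to 4 h passed in all 15 alternatives run, with an adjusted p of at most 0.0203. Its fall from control at 4 h passed in 14 of 15 and was lost in a fit of only the groups compared (adjusted p = 0.0761). The rise at 1 h was lost with control replicate 1 left out (adjusted p = 0.135), with 1 h replicate 2 left out (adjusted p = 0.0803) and without either 2 h replicate (adjusted p = 0.0949), and the fall from 2 h without a 2 h replicate (adjusted p = 0.136 and 0.145).

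Of the Gas transglycosidases, which lengthen glucan chains, GAS1, GAS3 and GAS5 fell at 4 h. The other 2 measured, the dim genes GAS2 and GAS4, which act in making the spore wall and are not among the 41, stood at -0.48 (adjusted p = 0.116) and -0.11 (adjusted p = 0.847). GAS1, the main one in growing cells, read 12.73 and 12.85 before treatment, 12.93 and 12.96 after 1 h, 12.74 and 12.85 after 2 h, and 12.10 and 12.05 after 4 h, and fell by 0.71 (SE 0.10, adjusted p = 0.0256). GAS3 read 10.78 and 10.90, then 10.91 and 10.92, 10.66 and 10.66, and 10.29 and 10.20 at those times, and fell by 0.60 (SE 0.09, adjusted p = 0.0285). GAS5 read 12.66 and 12.77, then 12.57 and 12.44, 12.52 and 12.43, and 12.16 and 12.17, and fell by 0.55 (SE 0.11, adjusted p = 0.0474). In GAS1, GAS3 and GAS5 the 4 h arrays were below every other sample.

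From 1 h to 4 h GAS1 fell by 0.87 (SE 0.10, adjusted p = 0.011) and GAS3 by 0.68 (SE 0.09, adjusted p = 0.0139), and from 2 h to 4 h GAS1 fell by 0.72 (SE 0.10, adjusted p = 0.0478). The fall of GAS1 from 1 h to 4 h passed in all 15 alternatives (adjusted p at most 0.0425). The falls of GAS1, GAS3 and GAS5 from control were lost without either control replicate (adjusted p from 0.0682 to 0.129) or either 2 h replicate (adjusted p from 0.0874 to 0.14). That of GAS3 from 1 h was lost without either 2 h replicate (adjusted p = 0.0554), and that of GAS1 from 2 h without either control replicate (adjusted p = 0.0836) or a 2 h replicate (adjusted p = 0.344 and 0.372). The GAS5 fall was also lost after median centring or quantile normalisation, as was the fall of GAS1 from 2 h (adjusted p = 0.055 and 0.0617).

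TOS1, a protein bound to the wall glucan, read 13.57 and 13.46 before treatment, 13.33 and 13.39 after 1 h, 13.33 and 13.24 after 2 h, and 12.98 and 13.00 after 4 h. Every treated sample was below both controls. It fell by 0.53 (SE 0.10, adjusted p = 0.0447) at 4 h, and its changes of -0.16 and -0.23 at 1 and 2 h did not pass. The call was lost without either control replicate (adjusted p = 0.127 and 0.0822) or either 2 h replicate (adjusted p = 0.137) and after median centring or quantile normalisation.

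The other 6 remodelling genes did not pass at any time. SCW4, close kin of SCW10, stayed between 14.55 and 14.73 on all arrays, and BGL2, a main glucan transferase of the wall, between 14.01 and 14.10. CRH1, which joins chitin to glucan, stood at -0.19, -0.16 and -0.19. UTR2, with the same activity and dim here, read 8.56 and 8.56 in the controls and 8.77 to 9.21 on the treated arrays, with changes of 0.33, 0.43 and 0.33 (adjusted p from 0.201 to 0.353). EXG1, the main secreted exoglucanase, stood at -0.24, 0.04 and 0.07, and EXG2, its membrane-anchored relative, at -0.19, -0.05 and 0.12.

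No chitin synthase passed limma's threshold, and at an unadjusted p under 0.05 there were 2 of 3 at 1 h, 1 at 2 h and 0 at 4 h, against 27.5%, 12.3% and 19.8% of all genes. CHS1, which repairs the wall at separation, read 12.32 and 11.89 before treatment, 11.51 and 11.71 after 1 h, 11.68 and 11.59 after 2 h, and 11.74 and 11.67 after 4 h. All treated arrays were below both controls, but the controls differed by 0.43, and its changes were -0.50 (adjusted p = 0.101), -0.47 and -0.40. Without control replicate 2 the change at 1 h was -0.71, in a fit with 1 control sample, where the difference between the controls no longer entered the spread. CHS2, which lays down the primary septum, read 10.76 and 10.77 before treatment, 10.46 and 9.85 after 1 h and 10.61 to 10.73 later. Its change at 1 h was -0.61 (SE 0.19, adjusted p = 0.103), and the 1 h replicates differed from each other by the same amount, 0.61. Without 1 h replicate 1 the change at 1 h was -0.91, but that fit held 1 sample at 1 h, so this difference no longer entered the spread. CHS3, which makes most of the cell's chitin, stood at -0.07, -0.05 and -0.23.

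YPS1, a GPI-anchored aspartyl protease that processes wall and surface proteins, read 12.78 and 12.48 before treatment and 12.18 and 11.74 after 1 h, then 12.25 and 12.18 at 2 h and 12.29 and 12.25 at 4 h. All treated arrays were below both controls, and the change at 1 h, -0.67 (SE 0.17), missed the threshold (adjusted p = 0.0672). It was -0.89 without 1 h replicate 1, in a fit with 1 sample at 1 h, where the difference between the 1 h replicates no longer entered the spread.

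The 4 genes of the SUN family encode secreted proteins related to glucanases that act in septation, and none passed. At limma's unadjusted p under 0.05 there was 1 at 1 h and 1 at 4 h, against 27.5% and 19.8% of all genes. SUN4 read 13.08 and 12.90 before treatment, 12.96 and 12.55 after 1 h, 12.95 and 12.92 after 2 h, and 13.42 and 13.40 after 4 h. The 4 h arrays were above all others, with a change of 0.42 (SE 0.18, adjusted p = 0.255). SIM1 went the other way at 4 h, at -0.44 (adjusted p = 0.244), and UTH1, which is also tied to mitochondria and ageing, stayed between 14.30 and 14.38. NCA3, dim here, stood at -0.34 at 1 h (adjusted p = 0.0753) and 0.01 at 4 h.

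The 5 genes of daughter-cell separation shared an order of samples. CTS1 (chitinase), SCW11 and DSE4 (glucanases), EGT2 and DSE2 each had both 4 h arrays above all 6 other samples. Over all genes 20.0% had that order, as did 11 of the 41 members. Against control none of the 5 passed limma's test at 4 h, with changes of 0.22 to 0.64 (lowest adjusted p = 0.116). Its unadjusted p was under 0.05 in 2 of the 5, against 19.8% of all genes. Against 1 h, SCW11 and DSE2 rose.

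SCW11 read 11.90 and 11.60 before treatment, 11.58 and 11.24 after 1 h, 11.81 and 11.82 after 2 h, and 12.42 and 12.35 after 4 h. Its 1 h samples were below both controls and its 4 h arrays above everything else. It was 0.98 (SE 0.18, adjusted p = 0.0256) higher at 4 h than at 1 h, or 1.97-fold, and 0.64 (SE 0.18, adjusted p = 0.116) above control. DSE2 read 13.26 and 12.99 before treatment, 12.94 and 12.81 after 1 h, 13.22 and 13.13 after 2 h, and 13.49 and 13.47 after 4 h, and was 0.60 (SE 0.14, adjusted p = 0.0418) higher after 4 h than after 1 h. Both rises were lost without either 2 h replicate (adjusted p = 0.0688 for SCW11 and 0.098 for DSE2), and that of DSE2 also without 1 h replicate 2 (adjusted p = 0.0819).

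DSE4 read 11.72 and 11.32 before treatment, 11.38 and 10.93 after 1 h, 11.55 and 11.45 after 2 h, and 12.00 and 12.06 after 4 h. Its difference between 4 h and 1 h, 0.87, did not pass (adjusted p = 0.0579). EGT2 and CTS1 were 0.44 and 0.25 higher at 4 h than at 1 h (adjusted p = 0.0949 and 0.125). In all 5 genes control replicate 1 read above control replicate 2, and 1 h replicate 1 above 1 h replicate 2. Over all genes, replicate 2 was below replicate 1 in 45.7% in the controls and in 53.9% at 1 h.

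**Figure D4:**
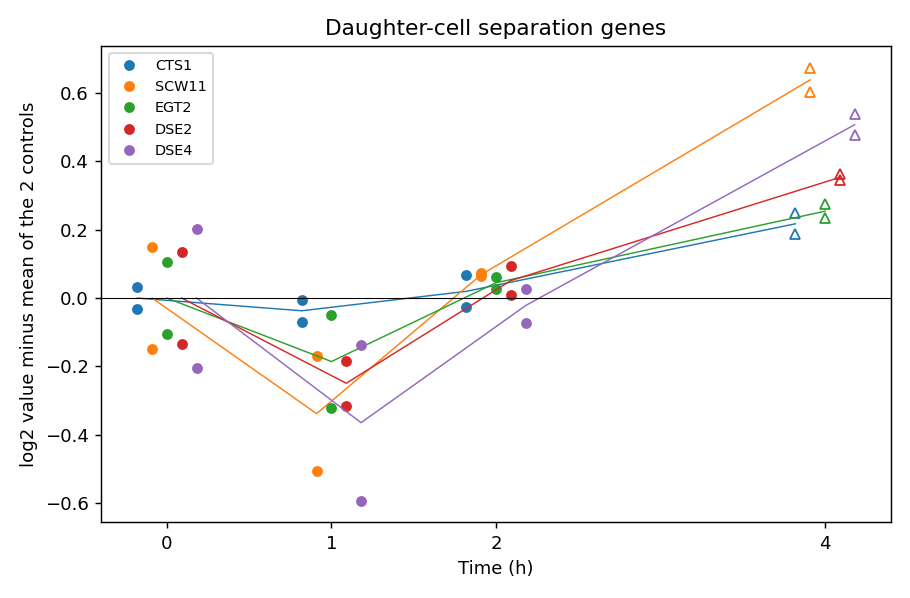
Log2 value minus the mean of the 2 controls against time for CTS1, SCW11, EGT2, DSE2 and DSE4; circles are RNA samples, open triangles the technical arrays at 4 h, and lines join group means. Points are shifted sideways for clarity. The means are below 0 at 1 h, from -0.04 to -0.36, near 0 at 2 h, and from 0.22 to 0.64 at 4 h.

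Changes of related members are given side by side; the differences between relatives were not tested, and the sets were chosen with their values known. In the pair SCW4 and SCW10, the changes at 4 h were 0.04 and -1.11. For FKS1 and GSC2 they were -0.44 and 0.10, and for KNH1 and KRE9 -0.56 and 0.19. CWP1 and CWP2 differed most at 2 h, at -1.58 and -0.07. GAS1, GAS3 and GAS5 stood at -0.71, -0.60 and -0.55 at 4 h and at 0.16, 0.08 and -0.21 at 1 h. EXG1 and EXG2 stood at 0.07 and 0.12 at 4 h. In the PIR family, PIR3 and CIS3 stood at 0.28 and -0.33 at 4 h. SUN4 and SIM1, of the SUN family, stood at 0.42 and -0.44. No pair of chitin synthases was further apart at 4 h than CHS1 and CHS2, at -0.40 and -0.14.

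**Figure D5:**
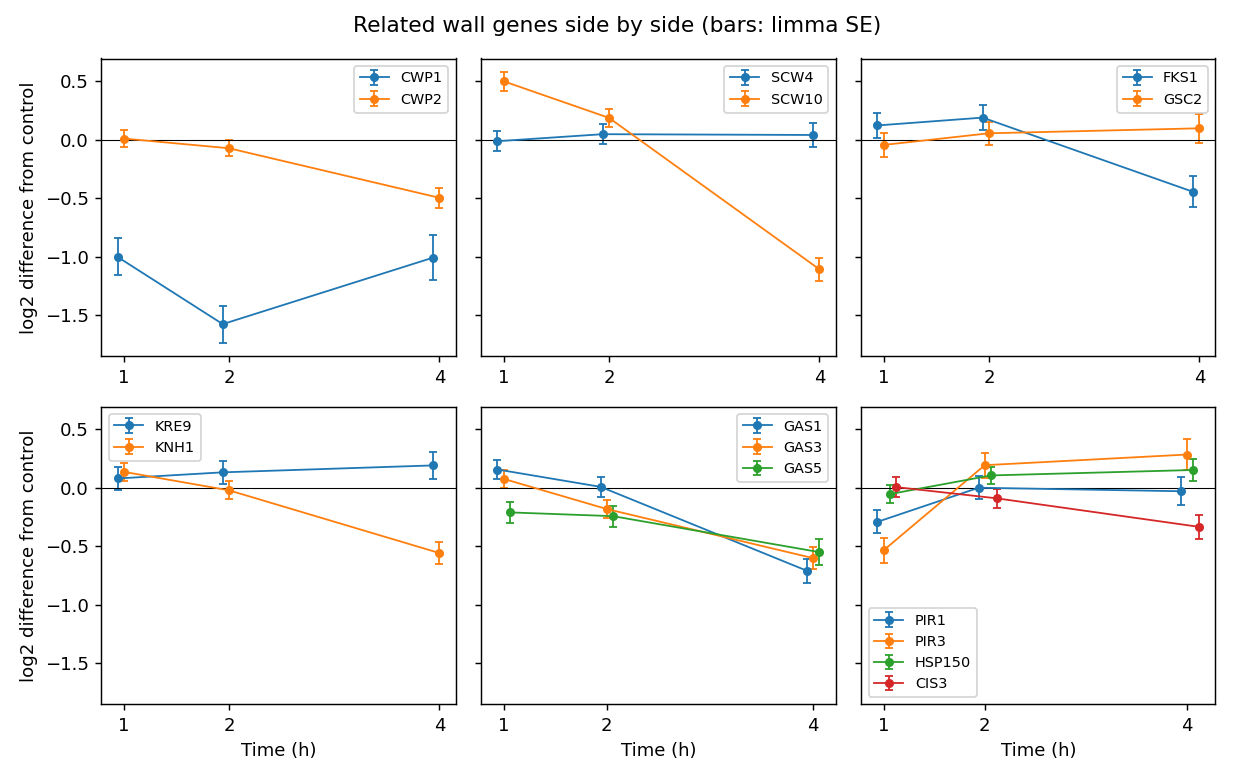
Log2 difference from control against time for 6 sets of related wall genes, with bars for limma's SE. SCW10, FKS1 and KNH1 end below 0 at 4 h while SCW4, GSC2 and KRE9 end at 0.04 to 0.19, and GAS1, GAS3 and GAS5 end between -0.71 and -0.55.

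Orders of samples across time were counted in the members, with shares over all genes beside them, and a member can hold more than 1 order or none. At 1 h, 31 of 41 members were below control, against 55.9% of all genes, and 18 members had both 1 h samples below both controls (43.9%, against 32.2% of all genes), while 5 had both above (12.2%, against 23.5%). At 2 h, 14 members lay below both controls (34.1%, against 31.5%) and 12 above (29.3%, against 21.1%), and at 4 h 18 lay below and 18 above (43.9% each, against 36.0% and 33.7%). From 1 h to 2 h, 19 members had both 1 h samples below both 2 h samples (46.3%, against 28.6%) and 8 above (19.5%, against 27.1%). The 12 members with both 1 h samples below every other sample (29.3%, against 16.1% of all genes) were SED1, PST1, PIR1, PIR3, HSP150, EXG1, EXG2, CHS2, NCA3, SCW11, DSE2 and YPS1. Four-hour lows were held by CWP2, CIS3, FKS1, KNH1, GAS1, GAS3, GAS5, SCW10, TOS1 and CHS3, or 10 of 41 (against 19.0% of all genes). Four-hour highs were held by SED1, SPI1, GSC2, KRE9, EXG2, SUN4 and the 5 daughter separation genes, or 11 of 41 (against 20.0% of all genes). KNH1, GAS1, GAS3 and SCW10 were highest at 1 h (9.8% of members, against 14.8% of all genes) and lowest at 4 h.

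Between the treated groups, the test of 4 h against 1 h called 9 members, or 22.0% against 11.7% of all genes (3.19% higher and 8.53% lower). PIR3, SCW11 and DSE2 were higher at 4 h, and CWP2, FKS1, KNH1, GAS1, GAS3 and SCW10 were lower. The count was 2, SCW10 and GAS1, without either 2 h replicate and 17 without 1 h replicate 1. The test of 2 h against 1 h called PIR3 (2.44%, against 2.64% of all genes, 0.128% higher and 2.51% lower), and that of 4 h against 2 h called GAS1 and SCW10 (4.88%, against 0.863% of all genes, 0.771% lower and 0.0918% higher). Counts with a replicate left out are not set beside those of all genes in the same fits, so they show only how far the calls depend on the samples. These comparisons between treated groups share samples with those against control, so they are not independent of them. Between the 1 h samples, replicate 2 read lower than replicate 1 in 24 of 41 members, with a median difference of -0.07, against -0.02 over all genes. Values moved less between the 2 h samples, where the root mean square SD over members was 0.07, against 0.12 in the controls and 0.16 at 1 h.

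Other genes of the wall were counted in 4 lists. Over all genes, 4.99% were called at 1 h (3.47% higher, 1.52% lower), 0.11% at 2 h and 4.46% at 4 h (0.734% higher, 3.73% lower), and 27.5%, 12.3% and 19.8% had an unadjusted p under 0.05. In cell wall integrity signalling, from the Wsc and Mid2 sensors to Slt2 and Rlm1, 0 of 25 genes passed against control at any time in limma's test, with 3, 0 and 4 at an unadjusted p under 0.05 at 1, 2 and 4 h. SLT2, the pathway's kinase, stood at -0.27, -0.28 and -0.06 and RLM1, its transcription factor, at 0.16, 0.22 and 0.34. The list's median moved from -0.12 at 1 h to 0.12 at 4 h, and 2 of its genes were higher at 4 h than at 1 h: the sensor MTL1 by 0.56 (SE 0.10) and ROM1, an exchange factor of Rho1, by 0.58 (SE 0.10), or 2 of 25 against 3.19% of all genes called higher. SLT2 and RLM1 were named after their values were seen, as the pathway's end points.

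Among 25 genes of glucan and mannan assembly, MCD4, a dim gene of GPI-anchor synthesis, rose at 1 h by 0.74 (SE 0.14), and 0 passed at 2 or 4 h, where 0 and 9 had an unadjusted p under 0.05. Of 14 genes of chitin synthesis, CDA1, a dim gene for a spore-wall chitin deacetylase, fell at 4 h by 0.59 (SE 0.10), and 0 passed at 1 or 2 h, where 6 and 3 had an unadjusted p under 0.05. Among 28 other wall and secreted proteins, FIT1, a mannoprotein that retains siderophore iron, fell by 0.96 (SE 0.18) at 1 h. PLB2, a dim phospholipase gene, fell by 1.46 (SE 0.13) at 4 h and PRY1, a secreted sterol-binding protein, by 0.68 (SE 0.09). In that list 1 rose and 3 fell at 1 h and 0 rose and 3 fell at 4 h; at 2 h 0 passed and 4 had an unadjusted p under 0.05.

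For 4 h against 1 h, where 3.19% of all genes were called higher and 8.53% lower, the other 3 lists held these calls, named because they are all such calls and thus after their values were seen. In assembly 3 of 25 were lower, MNN1 at -0.60, GAS4 at -1.09 and MCD4 at -1.21, all dim. In chitin synthesis CHS7 was lower, at -0.63, and BCH1 higher, at 0.47, of 14. Among the other wall and secreted proteins 4 of 28 were lower, PRY1 at -0.70, PRY2 at -0.90, PLB2 at -0.87 and SPR1 at -0.86. MTL1 and ROM1, above, were named in the same way.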

How the data were processed

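Per the submitters' processing notes, the authors made the deposited log2 values with RMA, a joint background correction, quantile normalisation and probe-set summary; no version is given, and the log base was judged from the range of the values. Array medians were 11.03 to 11.11. Arrays have no read depth, so their number limits the precision. The table held 5814 probe sets: 5498 had 1 gene name, 0 several and 316 none. Symbols were updated for 12, and the probe set with the highest mean was kept for 47 genes with several, which left 5449 genes.

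Both 4 h arrays were averaged. Comparisons used lmFit and eBayes of limma 3.58.1 (R 4.3.3) over 7 RNA samples, with 3 residual and 3.36 prior degrees of freedom and Benjamini-Hochberg adjustment within each comparison. No label names the cultures behind the replicates, so the spread that the p-values rest on may be technical. The code was tested on simulated data.

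The members, lists and tests were chosen with earlier results of these data known. All members are reported, and values in every sample are given for those that passed and for the 3 highest and 3 lowest changes at 4 h. Outside that choice, sample values are also given, in full or in part, for others, among them CHS1, CHS2, YPS1 and PIR1. From each related list of wall genes at most the 3 called genes with the largest change from control are named by rule. Named beyond this rule are SLT2, RLM1, GAS2, GAS4 and the genes called for 4 h against 1 h. Alternatives were centring, quantile normalisation, a filter on dim genes, the probe-set rule, the prior, the samples in the fit, a replicate block, single 4 h arrays and leaving out each replicate. Sequences and coordinates were not used here, and 1 related list is not reported here.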

Additional observations from a re-analysis of the deposited data

Results flagged for a closer look

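For 9 members the change from control differed between times by limma's test of the difference itself. From 1 h to 2 h PIR3 differed by 0.73. From 1 h to 4 h the differences were -0.51 for CWP2, 0.82 for PIR3, -0.57 for FKS1, -0.69 for KNH1, -0.87 for GAS1, -0.68 for GAS3, -1.61 for SCW10, 0.98 for SCW11 and 0.60 for DSE2. From 2 h to 4 h they were -0.72 for GAS1 and -1.29 for SCW10. The 4 h values come from 1 RNA sample. No group had the 4 samples needed to look for a sample that stands apart.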

How the results depend on the processing

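Of 24 calls on members, 2 passed in every alternative run, the falls of GAS1 and SCW10 from 1 h to 4 h, and 22 were lost in at least 1; no change turned its direction. A fit of only the groups compared called 0 members at 1 h, 0 at 4 h, 3 for 4 h against 1 h and 12 for 4 h against 2 h. Median centring and quantile normalisation each called 0 at 2 h, 4 at 4 h and 1 for 4 h against 2 h. A trended prior called 16 for 4 h against 1 h, 4 for 4 h against 2 h and 12 by the F test. Counts over all genes in the alternative fits are not given here, so the member counts show only how far the calls depend on the fit. The replicate number was also fitted as a block, over controls, 1 h and 2 h. There 4 members passed at 1 h, 0 at 2 h and 1 for 2 h against 1 h. Same-numbered deviations correlated at 0.10, 0.19 and 0.03 over genes. No label says that a shared number marks a shared batch, and whether it does was not tested. The median change was -0.044 at 1 h after centring and -0.029 at 4 h over genes above the 25th percentile. Leaving out each replicate in turn gave 0 to 9 members at 1 h, 0 to 1 at 2 h, 1 to 9 at 4 h, 0 to 4 for 2 h against 1 h, 2 to 17 for 4 h against 1 h, 0 to 4 for 4 h against 2 h and 0 to 12 by the F test, with medians of -0.16 to -0.083 at 1 h, -0.023 to 0.014 at 2 h and -0.01 to 0.01 at 4 h. Without either 2 h replicate most of the calls were lost, though changes that do not involve 2 h kept their values. Those fits drew the spread from the controls and the 1 h samples alone, with fewer residual degrees of freedom. Over all genes the 2 h samples lay closest together. Their root mean square SD was 0.085, against 0.16 in the controls and 0.174 at 1 h. The part of this closeness in the losses was not tested. UTR2 and NCA3 are limited by dim signal.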
